A study of Mus musculus with 9 samples.

Results

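Nuclear receptors are transcription factors, many of which bind a small fat-soluble ligand such as a steroid, a bile acid, a fatty acid or a vitamin and then raise or lower the transcription of genes to which they are bound. The 39 genes described here are listed members of this superfamily, and each was read from the probe set that names that gene alone and has the highest mean over the 9 arrays. A probe set is a group of short DNA probes for a transcript. Of the 39, 38 had such a probe set, among 18194 genes that had one, and 35 passed the filter on dim probe sets and were tested among 13888 genes. Nr1h2, which encodes the oxysterol receptor LXR beta, had no probe set of its own and was not analysed here. The chosen probe sets of Hnf4g, Nr2f1 and Esrrg lay under the 40th percentile of the array on all 9 arrays, at log2 values between 3.45 and 4.96, and were not tested, though another probe set of Esrrg was brighter in wild-type liver and is described with the oestrogen receptors. Vdr passed the filter on 7 arrays, and 2 of the wild-type arrays were those where it did not.

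In the liver, HNF4A maintains hepatocyte genes, the bile acid receptor FXR (Nr1h4) and its partner SHP (Nr0b2) restrain bile acid synthesis, and the xenobiotic receptors CAR (Nr1i3) and PXR (Nr1i2) induce drug-metabolising enzymes. PPAR alpha (Ppara) drives fatty acid oxidation during fasting, and most of these sensors bind DNA as a pair with a retinoid X receptor. Other members respond to retinoic acid, glucocorticoids, oestrogen or thyroid hormone, and the REV-ERB and ROR receptors belong to the circadian clock.

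Liver pieces in 3 groups of 3 were compared on Affymetrix expression arrays, all from male C57Bl6 mice aged 12 months that ate regular chow and were not treated. The wild-type group was liver of a wild-type mouse, diagnosed as normal with mild steatosis. The tumor group was hepatocellular carcinoma with severe steatosis from a SART1+/- mouse, a line whose males are said to develop such tumors without treatment, and the adjacent group was liver of that same animal away from the tumor, diagnosed as cellular alteration with severe steatosis. SART1 is a component of the spliceosome, and the labels do not say how its allele was altered. Each group was taken from a single animal, 2 animals in all. For that reason the p-values measure the spread between pieces of tissue, and genotype, animal and degree of steatosis cannot be told apart in the comparisons with wild-type liver.

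Values are log2 RMA signals, so a difference of 1 is a 2-fold difference, and levels of different genes are not set against each other. Arrays of 1 group correlated at 0.996 to 0.998. Sart1 read 8.34 ± 0.02 (SD, n = 3) in the wild-type pieces, 8.37 ± 0.03 in the adjacent pieces and 7.74 ± 0.03 in tumor, and since the place of its probes relative to the altered allele is not known, it does not check the genotype labels. Summed levels of 10 hepatocyte markers ran from 159622 to 165572 in the wild-type pieces, 147408 to 151901 in the adjacent pieces and 145814 to 146840 in tumor. Those of 12 stellate cell and fibroblast markers ran from 7378 to 9934, 12532 to 16135 and 12953 to 18332 in the same order, and those of 10 Kupffer cell and macrophage markers from 8825 to 9627, 11129 to 16253 and 13786 to 16766. Sums of 4 neutrophil markers ran from 241 to 292, 937 to 1178 and 1210 to 1454, of 5 cholangiocyte markers from 432 to 464, 1978 to 2257 and 1016 to 1148, and of 10 endothelial markers from 5627 to 6042, 4494 to 5452 and 4910 to 6101. Those of 6 T and NK cell markers ran from 568 to 619, 641 to 756 and 659 to 686, of 3 B cell markers from 133 to 161, 167 to 211 and 260.5 to 295.8, and of 3 adipocyte markers, 2 of which were under the 40th percentile in every piece, from 294 to 315, 586 to 1355 and 535 to 776. A summed level follows its brightest markers. Only 2 of 5 cholangiocyte and 2 of 4 neutrophil markers were higher without overlap in each SART1+/- group than in wild-type liver, and 0 were lower. Of 10 Kupffer cell and macrophage markers 6 were higher and 3 lower in tumor, and 5 and 3 in adjacent liver. The 10 hepatocyte markers were mixed, with 4 higher and 4 lower without overlap in tumor, and 3 and 4 in adjacent liver. Of all genes 35.9% were higher and 33.2% lower without overlap in tumor, and 36.5% and 33.0% in adjacent liver. The cholangiocyte marker Cldn7, named after its values were seen, read 5.26 to 5.51, 10.52 to 10.82 and 9.02 to 9.34 in the same order. The 3′ minus 5′ signal of Actb, an RNA quality measure, ran from 0.83 to 0.88 in the wild-type pieces, 0.82 to 0.91 in the adjacent pieces and 0.54 to 0.69 in tumor, and that of Gapdh from 0.26 to 0.29, 0.15 to 0.18 and 0.20 to 0.23 in the same order. The part of these differences in the results below was not tested, and in whole pieces of tissue fewer cells of a type and less RNA per cell cannot be told apart.

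In tumor against wild-type liver, 3 of the 35 tested receptors fell and 0 rose. The genes that fell were the xenobiotic receptor Nr1i3, the bile acid receptor Nr1h4 and the oestrogen receptor Esr1. A gene was called where the Benjamini-Hochberg adjusted p from limma was below 0.05 and the difference was at least 2-fold, a rule that called 13.0% of all genes tested in this comparison (8.41% higher and 4.59% lower). In adjacent liver against wild-type liver 0 of the 35 were called, against 11.5% of all genes, with 8.29% higher and 3.22% lower. At an unadjusted p below 0.05 in limma, 7 receptors were higher and 18 lower in tumor against wild-type liver (34.6% and 32.3% of all genes), 8 and 19 in adjacent against wild-type liver (35.5% and 31.2%), and 12 and 12 in tumor against adjacent liver (23.2% and 27.8%). In tumor against adjacent liver 1 receptor rose, the clock regulator Rora, and 4 fell, namely Nr1i3, Esr1 and the retinoid receptors Rarb and Rxrg, where 5.04% of all genes were called (2.10% higher and 2.94% lower). The shares of all genes called in each comparison also stand beside the counts of the gene lists below.

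By adjusted p alone, 23 receptors differed between tumor and wild-type liver (7 higher, 16 lower), where 63.4% of all genes did (33.2% higher, 30.2% lower). Between adjacent and wild-type liver 26 differed (8 higher, 18 lower), against 63.0% of all genes (34.0% higher, 28.9% lower). Between tumor and adjacent liver 22 differed (11 higher, 11 lower), against 45.2% of all genes (20.1% higher, 25.1% lower). The 3 values of a pair of groups did not overlap for 28 receptors in tumor against wild-type liver (7 higher, 21 lower) and 69.1% of all genes (35.9% higher, 33.2% lower). For adjacent against wild-type liver these were 29 receptors (9 higher, 20 lower) and 69.5% of all genes (36.5% higher, 33.0% lower), and for tumor against adjacent liver 26 (14 higher, 12 lower) and 53.0% (24.5% higher, 28.5% lower). The median difference over the 35 was -0.19 in tumor and -0.18 in adjacent liver against wild-type liver, where all genes had medians of -0.01 and -0.01, and -0.02 in tumor against adjacent liver, where all genes had -0.01. Most receptors thus differed by less than 2-fold, while the SD between pieces of a group had a median of 0.07 over the receptors. Both comparisons with wild-type liver share its 3 arrays, so their values stand side by side and are not independent of each other.

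**Figure D1:**
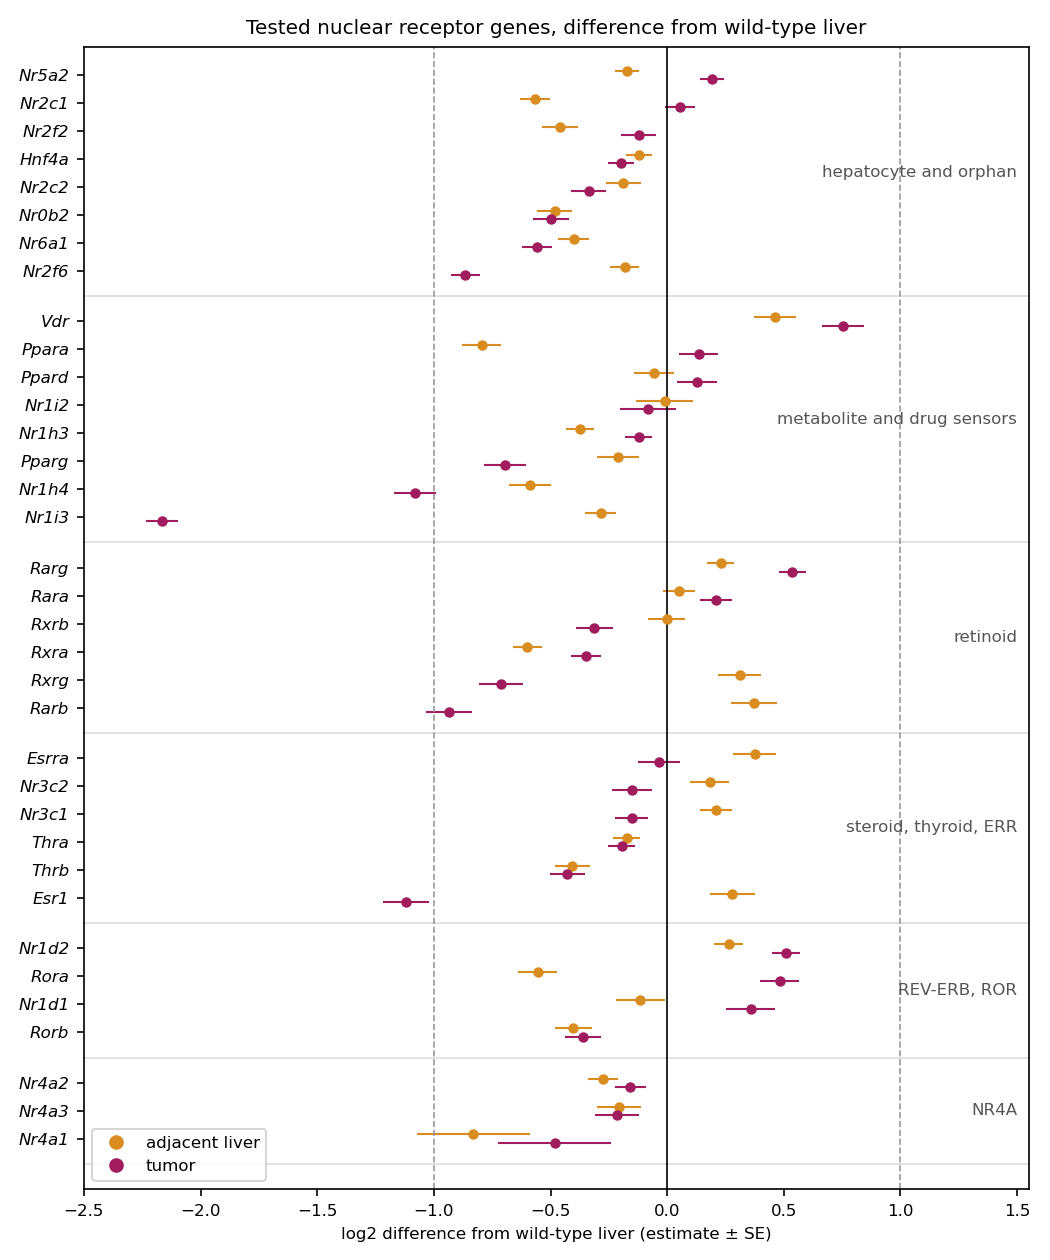
Log2 difference from wild-type liver (horizontal axis) of the 35 tested receptors in adjacent liver (orange) and tumor (purple), by role; points are limma estimates, bars 1 SE, and dashed lines mark a 2-fold difference. Only Nr1i3, Nr1h4 and Esr1 in tumor lie beyond the dashed lines, and 12 receptors, Ppara, Rora, Rarb, Rxrg and Esr1 among them, have adjacent liver and tumor on opposite sides of 0.

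Nr1i3, which encodes CAR, had the lowest tumor values relative to wild-type liver of any receptor tested. It read 10.29, 10.26 and 10.18 in the wild-type pieces, 9.83, 10.01 and 10.04 in the adjacent pieces and 8.06, 8.07 and 8.11 in tumor. All 3 tumor pieces lay below every other piece, and the adjacent pieces lay just under the wild-type ones. It fell by 2.17 on the log2 scale from wild-type liver to tumor (SE 0.07, 95% interval -2.32 to -2.02, adjusted p = 1.48e-09), which is 4.49-fold, and was 1.88 lower in tumor than in adjacent liver (difference -1.88, SE 0.07, adjusted p = 2.61e-08). The adjacent liver differed from wild-type liver by -0.28 (adjusted p = 0.00392). Nr1i2, which encodes PXR and shares many target genes with CAR, spanned 8.19 to 8.65 in the wild-type pieces, 8.29 to 8.55 in the adjacent pieces and 8.19 to 8.49 in tumor. Its groups overlapped, and the tumor minus wild-type difference of -0.08 had an interval of -0.35 to 0.19 (adjusted p = 0.573).

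Of 13 tested genes known as CAR and PXR targets, 2 rose and 6 fell in tumor against wild-type liver (median -0.92). In adjacent liver 3 rose and 5 fell (median -0.07), and in tumor against adjacent liver 0 rose and 4 fell (median -0.50). These calls are 61.5%, 61.5% and 30.8% of the list, where 13.0%, 11.5% and 5.04% of all genes were called. The cytochrome P450 gene Cyp2c37 read 12.69 ± 0.13 (SD, n = 3) in the wild-type pieces, 9.64 ± 0.17 in the adjacent pieces and 6.53 ± 0.13 in tumor, and fell in tumor (-6.16, SE 0.10, adjusted p = 3.42e-11). The organic anion transporter Slco1a4 and the carboxylesterase Ces2a also fell, in tumor (-2.75 and -2.34) and in adjacent liver (-1.70 and -1.62). The efflux pump Abcb1a went the other way, with rises of 3.31 in tumor and 3.80 in adjacent liver. Cyp2c29 and Cyp2c55 fell between adjacent liver and tumor, by -3.09 and -2.99, while Cyp2c55 had risen in adjacent liver against wild-type liver (1.28).

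Nr1h4, which encodes FXR, stepped down over the groups. It read 9.89, 9.92 and 9.85 in the wild-type pieces, 9.34, 9.13 and 9.43 in the adjacent pieces and 8.93, 8.84 and 8.65 in tumor, with no overlap between any pair of groups. It fell by 1.08 in tumor against wild-type liver (SE 0.09, interval -1.28 to -0.88, adjusted p = 2.06e-06), a 2.11-fold fall. The other steps were -0.59 for adjacent against wild-type liver (adjusted p = 0.00023) and -0.49 for tumor against adjacent liver (adjusted p = 0.00118). Nr0b2, the receptor without a DNA-binding domain that FXR induces, read 10.17 to 10.22 in the wild-type pieces, 9.66 to 9.79 in the adjacent pieces and 9.55 to 9.83 in tumor. Adjacent liver and tumor lay below the wild-type pieces (-0.48 and -0.50, adjusted p = 0.000284 and 0.000206), and they overlapped each other.

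Of 12 tested genes of the FXR and SHP bile acid circuit, 0 rose and 8 fell in tumor against wild-type liver (median -2.11), and 1 rose and 5 fell in adjacent liver (median -0.78). In tumor against adjacent liver 0 rose and 6 fell (median -1.09). Calls thus made up 66.7%, 50% and 50% of the list, against 13.0%, 11.5% and 5.04% of all genes. Members that fell include enzymes of bile acid synthesis, which FXR and SHP are known to restrain, and transporters, some of which FXR is known to induce. Among the enzymes, Cyp8b1 fell in tumor and in adjacent liver (-5.81 and -5.26), as did Cyp27a1 (-2.48 and -1.61), and Cyp7b1 (-4.46 and -1.61). Abcb11, the pump that exports bile salts into the canaliculus, read 12.27, 12.27 and 12.45 in the wild-type pieces, 11.71, 11.59 and 11.86 in the adjacent pieces and 10.38, 10.37 and 10.69 in tumor. It fell by 1.24 between adjacent liver and tumor (SE 0.10, adjusted p = 4.9e-06). Slc51b, a subunit of the basolateral bile acid exporter, rose in adjacent liver (1.67, adjusted p = 1.01e-06).

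**Figure D2:**
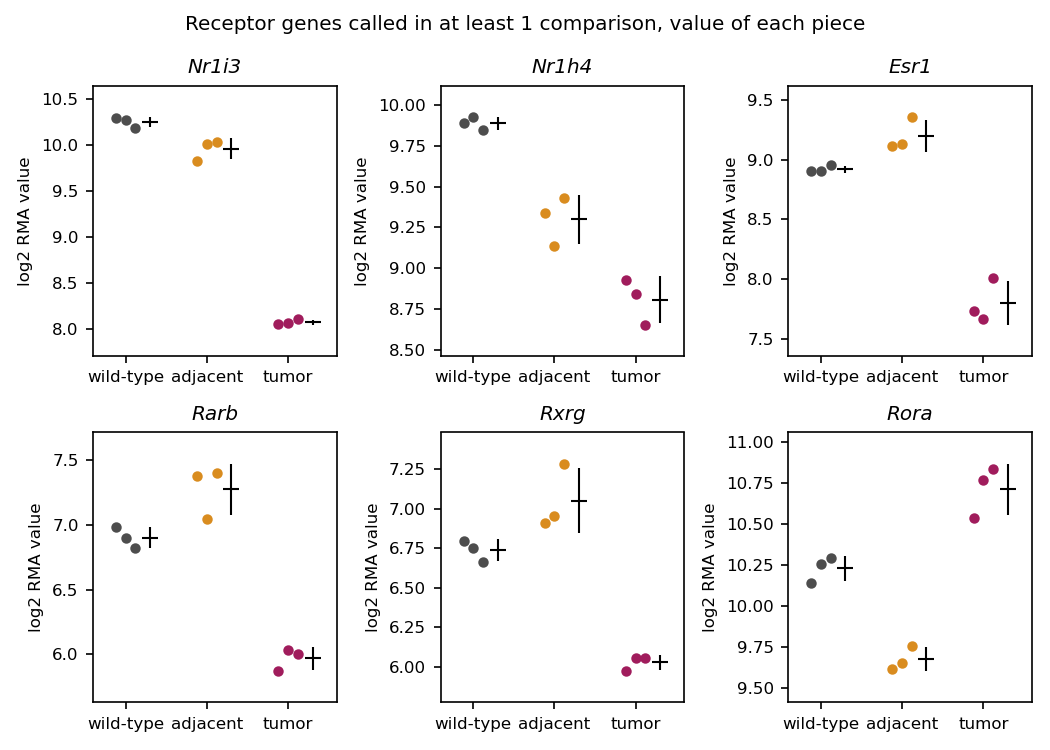
Log2 RMA value (vertical axis, scaled per gene) of each of the 9 pieces for the 6 receptors called in at least 1 comparison; points are pieces, and the bar beside each group is its mean ± SD (n = 3). Tumor pieces lie below all others for Nr1i3, Nr1h4, Esr1, Rarb and Rxrg and above all others for Rora.

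Ppara was lower in adjacent liver than in either other group. Its values were 10.83, 10.90 and 10.93 in the wild-type pieces, 10.07, 10.06 and 10.15 in the adjacent pieces and 11.15, 11.10 and 10.82 in tumor, so that wild-type liver and tumor overlapped and adjacent liver lay apart. The differences were -0.79 for adjacent against wild-type liver (SE 0.08, adjusted p = 1.34e-05) and 0.93 for tumor against adjacent liver (SE 0.08, adjusted p = 8.41e-06), short of 2-fold. All 3 Ppara probe sets had adjacent liver below both other groups without overlap, by -1.05 to -0.67 against wild-type liver and with tumor above adjacent liver by 0.79 to 1.26. With the most variable of these probe sets both differences passed 2-fold (-1.05 and 1.26), and without tumor replicate 3 the second did (1.03).

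The 18 tested genes known as PPAR alpha targets went in both directions. In adjacent liver 2 rose and 2 fell (median -0.29), and in tumor 2 rose and 5 fell (median -0.66). In tumor against adjacent liver 1 rose and 3 fell (median -0.29). In that order 22.2%, 38.9% and 22.2% of the list were called, against 11.5%, 13.0% and 5.04% of all genes. The fatty acid hydroxylase Cyp4a14 fell in tumor against wild-type liver by 5.93 (SE 0.35, adjusted p = 1.5e-07) and in adjacent liver (-3.20), and the hormone Fgf21 rose in both SART1+/- groups (2.36 in tumor, 1.99 in adjacent liver). Vnn1 rose between adjacent liver and tumor (1.13), while Cyp4a14 and the acyl-CoA thioesterase Acot1 fell (-2.73 and -1.74).

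The remaining sensors differed by less than 2-fold in every comparison. Pparg, which promotes lipid storage, read 8.09 ± 0.15 (SD, n = 3) in the wild-type pieces, 7.88 ± 0.12 in the adjacent pieces and 7.39 ± 0.08 in tumor, where it was lowest (-0.69 against wild-type liver, adjusted p = 6.49e-05). Of 8 tested PPAR gamma target genes, 3 rose and 4 fell in each comparison with wild-type liver. In tumor against adjacent liver 2 of them rose and 3 fell. For tumor, adjacent liver and tumor against adjacent liver this was 87.5%, 87.5% and 62.5%. Of all genes 13.0%, 11.5% and 5.04% were called. The lipase Lpl rose by 3.46 in tumor and 4.71 in adjacent liver, whereas the acyltransferase Mogat1 fell in both (-1.66 in tumor, -1.75 in adjacent liver). Vdr, the vitamin D receptor, was the highest-placed receptor in tumor relative to wild-type liver, at 5.07 to 5.34 in the wild-type pieces, 5.64 to 5.71 in the adjacent pieces and 5.80 to 6.10 in tumor. Its differences from wild-type liver were 0.75 in tumor and 0.46 in adjacent liver (adjusted p = 3.42e-05 and 0.00124). Both Vdr probe sets had the groups in this order without overlap. The dimmer one was above the 40th percentile on 6 arrays, none of them wild-type, so it passed the filter only through the groups where it is high. Of 3 tested vitamin D genes only Cyp2r1, a vitamin D 25-hydroxylase, was called. It fell in tumor by 1.17, where 13.0% of all genes were called. Nr1h3, which encodes LXR alpha, was lower in adjacent liver (-0.37, adjusted p = 0.000294), and 1 of 12 LXR target genes rose and 1 fell in tumor, namely the sterol exporter Abcg5 (1.51) and, named after its value was seen, the phospholipid transfer protein gene Pltp (-1.12). In adjacent liver 0 of these rose and Pltp fell (-1.48). The LXR list thus had 16.7% and 8.33% called in tumor and adjacent liver, near the 13.0% and 11.5% of all genes. The wild-type pieces of Pltp were spread, at 11.86, 11.87 and 10.81 (SD 0.61). Its adjacent pieces read 9.84 to 10.27 and its tumor pieces 10.33 to 10.50, so the third wild-type piece lay nearer to them. Ppard differed by 0.13 in tumor and -0.06 in adjacent liver (adjusted p = 0.209 and 0.587).

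The receptors for retinoic acid and the retinoid X receptors differed in direction. Rarb read 6.98, 6.90 and 6.82 in the wild-type pieces, 7.38, 7.05 and 7.40 in the adjacent pieces and 5.87, 6.03 and 6.0 in tumor. The adjacent pieces were the highest and the tumor pieces the lowest, with no overlap between groups. It fell by 1.31 between adjacent liver and tumor (SE 0.10, adjusted p = 2.35e-06), and differed by -0.93 between tumor and wild-type liver (adjusted p = 1.09e-05) and by 0.37 between adjacent and wild-type liver (adjusted p = 0.0067). Rarb is a textbook retinoic acid target, and so is Cyp26a1, the hydroxylase that clears retinoic acid. Cyp26a1 read 10.91, 10.87 and 10.87 in the wild-type pieces, 8.09, 8.09 and 8.32 in the adjacent pieces and 6.91, 6.77 and 6.57 in tumor. It fell by 4.13 in tumor (SE 0.09, adjusted p = 1.5e-10) and by 2.71 in adjacent liver (SE 0.09, adjusted p = 3.9e-09), so the adjacent liver held the lower Cyp26a1 and the higher Rarb relative to wild-type liver.

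The 250 bases before the start site of these 2 genes are shown because both hold the spaced repeat that retinoic acid receptors bind. They are RefSeq sequences on GRCm38.p6, Rarb from chr14:16575477-16575726 on the minus strand and Cyp26a1 from chr19:37697558-37697807 on the plus strand, each printed 5′ to 3′ in the direction of the gene. Capitals mark 2 hexamers in the same direction with a gap of 5 bases.

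Rarb: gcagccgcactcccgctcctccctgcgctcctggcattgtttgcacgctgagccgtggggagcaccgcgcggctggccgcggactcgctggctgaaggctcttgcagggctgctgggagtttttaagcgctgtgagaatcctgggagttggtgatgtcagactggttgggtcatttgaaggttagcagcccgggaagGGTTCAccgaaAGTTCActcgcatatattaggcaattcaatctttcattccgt
Cyp26a1: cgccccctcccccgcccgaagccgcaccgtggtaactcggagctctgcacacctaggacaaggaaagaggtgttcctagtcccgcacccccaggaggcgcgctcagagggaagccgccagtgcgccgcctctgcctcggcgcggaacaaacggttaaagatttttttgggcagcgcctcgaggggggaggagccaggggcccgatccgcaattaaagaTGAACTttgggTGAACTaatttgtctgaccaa

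The search took AGGTCA at each place, or the variant AGTTCA in its stead, or the variant GGTTCA, or the variant GGGTCA, on both strands. The repeat lies from -53 to -37 in Rarb and, on the opposite strand, from -32 to -16 in Cyp26a1. Of 27025 genes with a promoter entry 28 (0.104%) held it in the same window, and of the 36 listed receptors with an entry only Rarb did. The hexamer AGGTCA by itself was in 9 of the 36, where 15.8% of all genes held it. These motifs were chosen after several others had been searched, and a match is not a measured binding site.

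Rxrg had the same order of groups as Rarb. It read 6.80, 6.75 and 6.67 in the wild-type pieces, 6.91, 6.95 and 7.29 in the adjacent pieces and 5.97, 6.06 and 6.06 in tumor, without overlap. It fell by 1.02 between adjacent liver and tumor (SE 0.09, adjusted p = 1.01e-05), which was close to the 2-fold limit. The fall was -0.99 with array weights, -0.90 without adjacent replicate 3 and -0.99 without tumor replicate 1, each short of a call. Rxra, the main retinoid X receptor of liver, read 11.37 ± 0.01 in the wild-type pieces, 10.77 ± 0.11 in the adjacent pieces and 11.03 ± 0.04 in tumor. It was lowest in adjacent liver (-0.60, SE 0.06, adjusted p = 1.46e-05) and between the others in tumor (-0.35, adjusted p = 0.000737), but its other probe set that passed the filter put tumor above wild-type liver (0.19). Rxrb differed by -0.31 between tumor and wild-type liver (adjusted p = 0.00567) and by less than 0.01 in adjacent liver. Rarg was lowest in wild-type liver (7.78 to 7.92), higher in adjacent liver (8.06 to 8.08) and highest in tumor (8.34 to 8.42), with differences of 0.23 and 0.54 from wild-type liver (adjusted p = 0.00534 and 1.4e-05), and both its probe sets had this order. Rara differed by 0.21 in tumor (adjusted p = 0.0205).

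Of 16 tested genes of retinoid handling and response, 3 rose and 6 fell in tumor against wild-type liver (median -0.19), 2 rose and 4 fell in adjacent liver (median -0.16), and 2 rose and 3 fell in tumor against adjacent liver (median -0.06). That is 56.2%, 37.5% and 31.2% of the list, where 13.0%, 11.5% and 5.04% of all genes were called. Retsat, a retinol saturase, fell in tumor against wild-type and adjacent liver (-3.15 and -2.57). The second retinoic acid hydroxylase, Cyp26b1, fell in tumor and adjacent liver (-2.92 and -2.89). Bco1, which cleaves beta-carotene, rose in both (2.35 and 1.56).

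Among receptors for steroid and thyroid hormones, Esr1, the oestrogen receptor alpha, fell in tumor. It read 8.90, 8.90 and 8.95 in the wild-type pieces, 9.12, 9.13 and 9.36 in the adjacent pieces and 7.73, 7.66 and 8.01 in tumor. On its brightest probe set tumor pieces lay below all others and adjacent pieces above all others. Over the 3 Esr1 probe sets adjacent liver was above wild-type liver by 0.11 to 0.28, without overlap on 2. The falls were -1.12 from wild-type liver (SE 0.10, adjusted p = 2.61e-06) and -1.40 from adjacent liver (SE 0.10, adjusted p = 1.43e-06). All 3 Esr1 probe sets had tumor lowest without overlap, at -1.12 to -0.33 against wild-type liver, and the mean over them differed by -0.82 from wild-type liver, short of 2-fold. The dimmest of them, at -0.33, was above the 40th percentile on 6 arrays, none of them tumor. It thus passed the filter only through the groups where it is high. Esrrg, an oestrogen-related orphan receptor, was not tested by its chosen probe set, but its most variable probe set read 6.17, 5.94 and 6.32 in the wild-type pieces, 3.82, 3.63 and 3.29 in the adjacent pieces and 3.36, 3.49 and 3.71 in tumor. Wild-type liver lay above both other groups, which overlapped each other, by differences of -2.57 for adjacent liver and -2.63 for tumor, larger than for any of the 35 tested receptors. This probe set was above the 40th percentile in the 3 wild-type pieces alone, so it passed the filter only through the group where it is high, and the remaining 2 Esrrg probe sets differed by -0.37 to -0.22. Esrra, a relative that regulates mitochondrial genes, was higher in adjacent liver (8.14 to 8.33) than in wild-type liver (7.78 to 7.93) or tumor (7.61 to 7.91), and the differences were 0.37 for adjacent against wild-type liver and -0.41 for tumor against adjacent liver (adjusted p = 0.00431 and 0.00359).

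The glucocorticoid receptor Nr3c1 was 0.36 lower in tumor than in adjacent liver (difference -0.36, adjusted p = 0.00162) and differed by -0.15 from wild-type liver (adjusted p = 0.0801), while its 6 probe sets disagreed in direction. Of 15 tested glucocorticoid receptor target genes, 4 rose and 5 fell in tumor, and 2 rose and 5 fell in adjacent liver. In tumor against adjacent liver 1 of them rose and 0 fell. Calls were 60%, 46.7% and 6.67% of the list, against 13.0%, 11.5% and 5.04% of all genes. The last share was near that of all genes. Tsc22d3, a glucocorticoid-induced leucine zipper gene, fell in tumor and adjacent liver (-3.06 and -2.63), and the tyrosine aminotransferase gene Tat fell in both as well (-2.55 and -1.75). The metallothionein gene Mt1 rose in both (2.85 in tumor and 3.16 in adjacent liver), and Igfbp1 rose in tumor against wild-type and adjacent liver (2.20 and 2.48). The mineralocorticoid receptor Nr3c2 differed by -0.33 between tumor and adjacent liver (adjusted p = 0.0086).

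The thyroid hormone receptor Thrb, the main form in liver, read 6.34 to 6.45 in the wild-type pieces, 5.89 to 6.09 in the adjacent pieces and 5.87 to 6.09 in tumor. Both SART1+/- groups were lower (-0.41 in adjacent liver and -0.43 in tumor, adjusted p = 0.000825 and 0.000559) and overlapped each other. Thra differed by -0.17 in adjacent liver and -0.19 in tumor on its brightest probe set, but its most variable probe set gave 0.32 and 0.15, so its direction depended on the probe set. Of 8 tested thyroid hormone transport and response genes, 0 rose and 5 fell in tumor (median -1.24) and 0 rose and 3 fell in adjacent liver (median -0.75). In tumor against adjacent liver 1 rose and 2 fell. The list thus had 62.5%, 37.5% and 37.5% called, against 13.0%, 11.5% and 5.04% of all genes. Dio1, the deiodinase that converts thyroxine to its active form, read 10.66 ± 0.04 in the wild-type pieces, 10.26 ± 0.07 in the adjacent pieces and 6.91 ± 0.11 in tumor. It fell by 3.75 from wild-type liver to tumor (SE 0.07, adjusted p = 5.32e-11). The lipogenic gene Thrsp fell in tumor and in adjacent liver (-3.05 and -1.72).

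Rora, an activator of clock genes and of hepatic lipid genes, was the single receptor that rose in any comparison. It read 10.14, 10.25 and 10.29 in the wild-type pieces, 9.61, 9.65 and 9.75 in the adjacent pieces and 10.53, 10.76 and 10.83 in tumor, with adjacent liver lowest, tumor highest and no overlap. It rose by 1.04 from adjacent liver to tumor (SE 0.08, adjusted p = 4.17e-06), with differences of 0.48 for tumor and -0.55 for adjacent liver against wild-type liver (adjusted p = 0.00051 and 0.000206). Of the 8 Rora probe sets that passed the filter, 7 had adjacent liver below wild-type liver without overlap. Tumor was above adjacent liver without overlap on 7, not all of them the same. Against wild-type liver, tumor was higher without overlap on 6 and lower without overlap on 1 (-0.20). The mean over its probe sets gave 0.84, and without tumor replicate 3 the difference was 0.98, both short of 2-fold. The most variable probe set gave -1.35 for adjacent against wild-type liver. Rorb was lower in adjacent liver and in tumor (-0.40 and -0.36, adjusted p = 0.00117 and 0.00219).

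**Figure D3:**
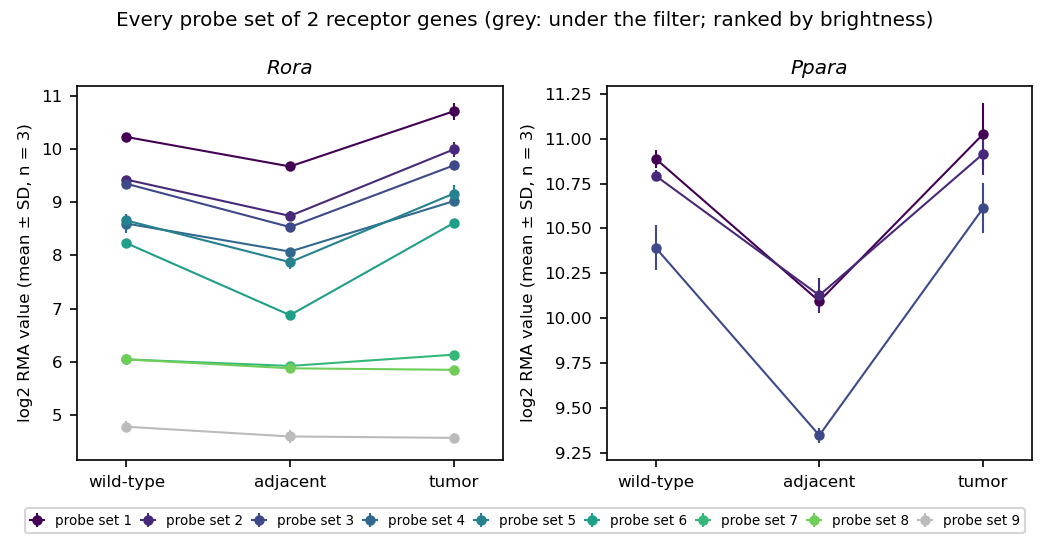
Mean log2 RMA value ± SD (vertical axis, n = 3 pieces) in the 3 groups for each probe set of Rora and Ppara, ranked by brightness; a probe set under the filter is grey. Over the probe sets that passed the filter, adjacent liver is below wild-type liver by -1.35 to -0.12 for Rora and -1.05 to -0.67 for Ppara. Tumor is above adjacent liver on all of these except 1 dim Rora probe set (-0.03).

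The REV-ERB receptors repress the clock gene Arntl, which ROR receptors activate. Nr1d2, which encodes REV-ERB beta, read 10.20 to 10.30 in the wild-type pieces, 10.43 to 10.58 in the adjacent pieces and 10.73 to 10.79 in tumor. It differed by 0.51 in tumor and 0.26 in adjacent liver (adjusted p = 2.8e-05 and 0.0031). Nr1d1, REV-ERB alpha, read 8.68 to 8.80 in the wild-type pieces, 8.43 to 8.77 in the adjacent pieces and 8.92 to 9.26 in tumor, where it was highest (0.36, adjusted p = 0.0127). Of 15 tested clock genes, 3 rose and 4 fell in tumor, and 3 rose and 3 fell in adjacent liver. In tumor against adjacent liver 0 of them rose and 1 fell. Shares called were 46.7%, 40% and 6.67%, against 13.0%, 11.5% and 5.04% of all genes, so the last was near that of all genes. Arntl read 8.72, 8.70 and 8.76 in the wild-type pieces, 7.33, 7.17 and 7.33 in the adjacent pieces and 6.77, 6.57 and 7.13 in tumor, and fell in tumor and in adjacent liver (-1.90 and -1.45, adjusted p = 1.98e-07 and 1.82e-06). Dbp, an output gene of the clock, rose by 3.65 in tumor and 2.71 in adjacent liver, and the repressor Nfil3 fell in both (-2.03 and -1.61). Npas2, a partner of ARNTL, fell between adjacent liver and tumor by 1.58. The labels do not give the time of day at which tissue was taken, and with 1 animal per genotype time of day and genotype cannot be told apart in the comparisons with wild-type liver.

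**Figure D4:**
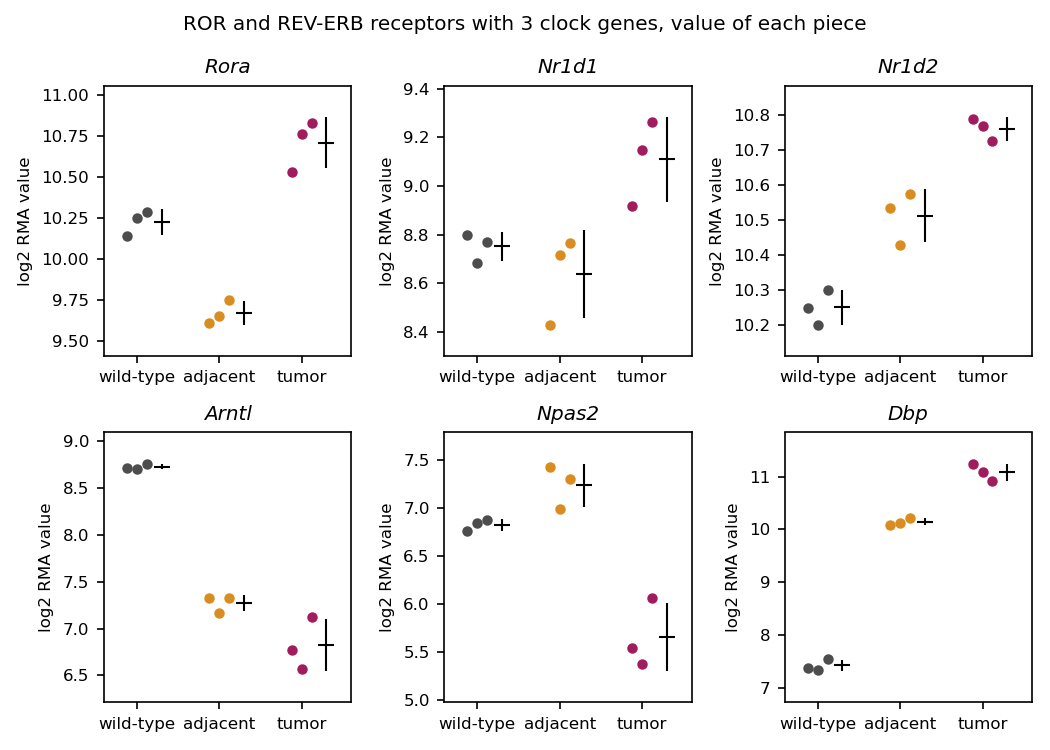
Log2 RMA value (vertical axis, scaled per gene) of each of the 9 pieces for 3 ROR and REV-ERB receptors and 3 clock genes; points are pieces, and bars give mean ± SD (n = 3). Arntl lies at 8.70 or above in wild-type liver and at 7.33 or below in the other groups, Dbp has the opposite order, and Rora alone has adjacent liver lowest and tumor highest without overlap.

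Orphan and hepatocyte receptors, which have no settled hormone ligand, gave 0 calls of 8 tested in every comparison. Of all genes, 13.0% were called in tumor and 11.5% in adjacent liver against wild-type liver, and 5.04% in tumor against adjacent liver. Hnf4a read 12.47 to 12.52 in the wild-type pieces, 12.33 to 12.42 in the adjacent pieces and 12.26 to 12.33 in tumor, and differed by -0.20 in tumor (SE 0.05, adjusted p = 0.00938) and -0.12 in adjacent liver (adjusted p = 0.0802). Over its 4 probe sets the tumor difference from wild-type liver ran from -0.22 to 0.14, lower without overlap on 1. Adjacent liver was lower on all 4 (-0.34 to -0.12), and 2 had tumor above adjacent liver without overlap. Of 15 tested genes known as HNF4A targets, 2 rose and 4 fell in tumor (median -0.31), 1 rose and 2 fell in adjacent liver (median -0.28), and 2 rose and 1 fell in tumor against adjacent liver (median 0.14). The gluconeogenic genes G6pc and Pck1 fell in both groups (-3.10 and -1.73 in tumor, -2.80 and -3.24 in adjacent liver), and the apolipoprotein gene Apom rose in both (1.45 and 1.10). Apoa4 rose in tumor (3.02) and differed by 0.60 in adjacent liver (adjusted p = 0.000784).

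Nr2f6 was the orphan receptor with the lowest tumor values relative to wild-type liver. It read 10.19, 10.21 and 10.20 in the wild-type pieces, 10.00, 10.01 and 10.04 in the adjacent pieces and 9.26, 9.30 and 9.45 in tumor. The groups did not overlap on either of its probe sets, and the differences were -0.87 for tumor (SE 0.06, adjusted p = 5.92e-07) and -0.18 for adjacent liver (adjusted p = 0.0252). Nr2c1, the testicular receptor TR2, was low in adjacent liver alone, at 7.97 to 8.13, against 8.59 to 8.65 in wild-type liver and 8.62 to 8.75 in tumor. Its differences were -0.56 for adjacent against wild-type liver (SE 0.06, adjusted p = 2.44e-05) and 0.62 for tumor against adjacent liver (adjusted p = 2.48e-05), and all 5 of its probe sets had adjacent liver below both other groups without overlap. Nr2f2, COUP-TFII, was lowest in adjacent liver on its brightest probe set (-0.46, adjusted p = 0.000393) and differed by -0.12 in tumor (adjusted p = 0.183). Its probe sets disagreed: of 4 that passed the filter, only 1 had tumor above adjacent liver without overlap. Against wild-type liver, adjacent liver was lower without overlap on 3 of them and higher on 1 (0.09). Nr6a1 was lower in tumor and in adjacent liver (-0.56 and -0.40, adjusted p = 2.8e-05 and 0.000358), and so was Nr2c2 (-0.34 and -0.19, adjusted p = 0.00249 and 0.0479). The next brightest Nr2c2 probe set put adjacent liver lowest (-0.46), with tumor overlapping wild-type liver (-0.13). Nr5a2, LRH-1, a regulator of bile acid and cholesterol genes, differed by 0.19 in tumor and -0.17 in adjacent liver (adjusted p = 0.00885 and 0.0157), and the mean over its probe sets gave 0.03 for adjacent liver.

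The NR4A receptors, which are induced within minutes to hours of many stimuli and need no known ligand, had negative differences from wild-type liver in both SART1+/- groups. Nr4a1 read 8.29, 8.17 and 9.32 in the wild-type pieces, 7.79, 7.56 and 7.93 in the adjacent pieces and 8.10, 8.14 and 8.10 in tumor. The wild-type piece at 9.32 stood above all others, and the SD of 0.63 in its group was the largest of any tested receptor. The differences were -0.83 in adjacent liver (SE 0.24, adjusted p = 0.0122) and -0.48 in tumor (SE 0.24, adjusted p = 0.106), and the size of both depended on the wild-type piece at 9.32. Without that piece, wild-type replicate 3, they were -0.47 (adjusted p = 0.00336) and -0.12 (adjusted p = 0.336), and without wild-type replicate 2 they were -1.04, which was called, and -0.69. Nr4a2 differed by -0.27 in adjacent liver (adjusted p = 0.00378) and -0.16 in tumor (adjusted p = 0.0543). Nr4a3 differed by -0.21 in adjacent liver and -0.22 in tumor (adjusted p = 0.0819 and 0.0708). Of 15 tested immediate early genes, by contrast, 7 rose and 0 fell in tumor (median 0.94). In adjacent liver 8 of them rose and 1 fell (median 1.08). Calls were 46.7% and 60% of the list, against 13.0% and 11.5% of all genes. Ier3 rose by 3.94 and 4.10, Myc by 1.76 and 1.59 and Klf6 by 1.70 and 1.45 in tumor and adjacent liver, and Btg2 rose in tumor by 2.28.

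The 3 NR4A genes share a promoter feature, shown here because it is the element through which cyclic AMP and CREB are known to induce immediate early genes. Capitals mark TGACG, the core of that element, or CGTCA where it lies on the opposite strand, in the 250 RefSeq bases before each start site on GRCm38.p6. Nr4a1 is from chr15:101266596-101266845 (plus strand), Nr4a2 from chr2:57124004-57124253 (minus strand) and Nr4a3 from chr4:48045055-48045304 (plus strand), each printed 5′ to 3′ in the direction of the gene.

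Nr4a1: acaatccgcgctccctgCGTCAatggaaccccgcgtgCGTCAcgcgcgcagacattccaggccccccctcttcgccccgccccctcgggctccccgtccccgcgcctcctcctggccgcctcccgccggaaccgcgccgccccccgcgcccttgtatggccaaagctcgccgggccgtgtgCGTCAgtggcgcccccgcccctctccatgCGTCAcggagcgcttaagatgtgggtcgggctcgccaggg
Nr4a2: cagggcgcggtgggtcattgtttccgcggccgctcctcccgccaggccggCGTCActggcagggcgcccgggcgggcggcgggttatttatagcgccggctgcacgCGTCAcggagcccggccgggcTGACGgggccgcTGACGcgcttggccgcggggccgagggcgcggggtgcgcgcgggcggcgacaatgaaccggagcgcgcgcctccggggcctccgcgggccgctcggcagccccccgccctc
Nr4a3: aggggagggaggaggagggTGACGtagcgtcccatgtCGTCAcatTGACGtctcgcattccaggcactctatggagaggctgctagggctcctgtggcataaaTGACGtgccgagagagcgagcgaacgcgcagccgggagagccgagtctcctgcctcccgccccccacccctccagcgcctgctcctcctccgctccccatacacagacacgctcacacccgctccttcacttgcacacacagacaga

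Each of the 3 holds 4 matches, where 210 of 27025 genes (0.777%) hold 3 or more. At least 1 match was found in 10 of the 36 receptors with an entry, against 19.8% of all genes. The motif was chosen after several others had been searched, and a match does not show that a factor binds there.

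Receptors act through coregulators, and of 22 tested coregulator genes 1 rose and 2 fell in tumor (median 0.14), 2 rose and 2 fell in adjacent liver (median 0.13), and 1 rose and 1 fell in tumor against adjacent liver (median -0.04). These calls are 13.6%, 18.2% and 9.09% of the 22, where 13.0%, 11.5% and 5.04% of all genes were called. Ppargc1a, which encodes the coactivator PGC-1 alpha, fell in tumor by 1.28 (SE 0.07, adjusted p = 8.5e-08) and in adjacent liver by 1.16 (SE 0.07, adjusted p = 2.27e-07). Lpin1, a phosphatidate phosphatase that also coactivates PPAR alpha, read 11.96, 11.99 and 11.62 in the wild-type pieces, 8.68, 8.48 and 8.69 in the adjacent pieces and 9.59, 9.52 and 9.95 in tumor. It fell by 3.24 in adjacent liver and 2.17 in tumor, and rose by 1.07 from adjacent liver to tumor (SE 0.13, adjusted p = 6.98e-05). Pprc1, a PGC-1 related coactivator, rose in both (1.10 in tumor, 1.63 in adjacent liver), and Ncoa7 rose in adjacent liver (1.66) and was lower in tumor than there (-1.19). Of 10 further nuclear receptor genes, 6 had a probe set and 3 were tested. Esrrb, Esr2 and Nr5a1 differed by -0.45, -0.23 and -0.10 in tumor, with 0 called.

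**Figure D5:**
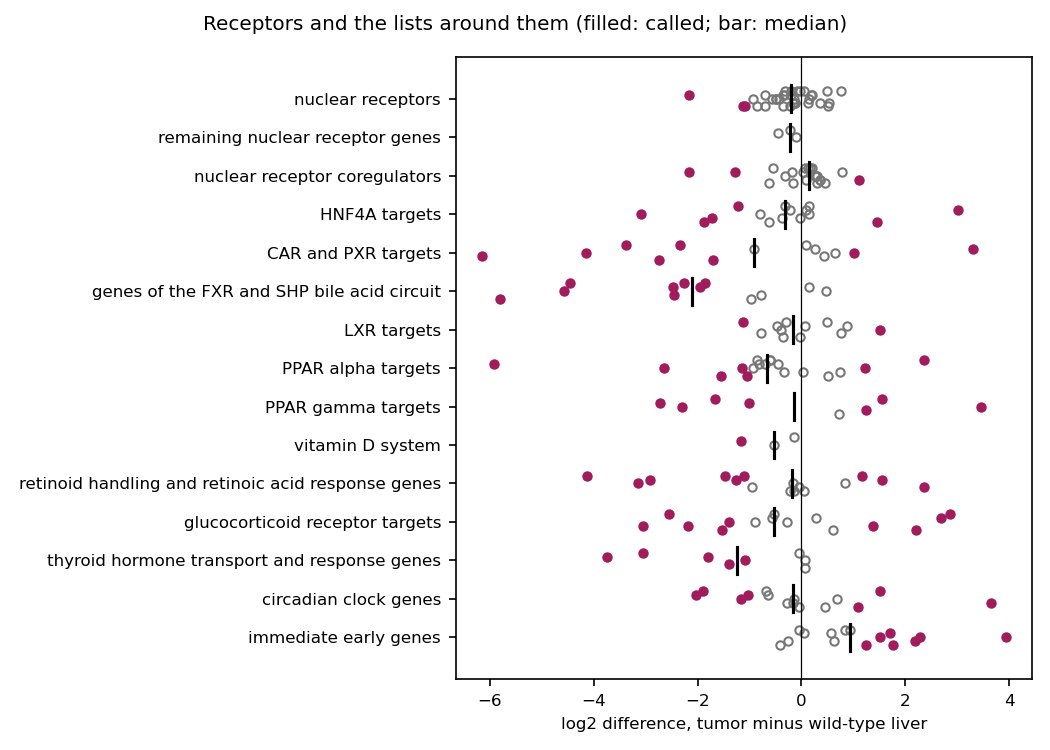
Log2 difference of tumor from wild-type liver (horizontal axis) for each tested gene of the receptor list and of 14 lists around it; filled points were called, open points were not, and a black bar marks the list median. Receptors span -2.17 to 0.75, while single genes of the other lists reach -6.16 (Cyp2c37, a CAR and PXR target) and 3.94 (Ier3, an immediate early gene).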

How the data were processed

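The values are log2 RMA signals that the authors deposited for 45101 probe sets on 9 arrays; RMA and Affymetrix Expression Console 1.3.1.187 are named per the submitters' processing notes. RMA corrects background, normalizes quantiles and summarises probes, so depth has no meaning here and the number of arrays limits precision. The probe table gave 34958 probe sets 1 symbol, 932 several and 9211 none, and each gene was read from its brightest probe set with 1 symbol. Genes above an array's 40th percentile on at least 3 of 9 arrays were tested.

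All 9 arrays entered 1 fit with a mean per group (limma 3.58.1 in R 4.3.3, lmFit and eBayes, 6 residual degrees of freedom), with Benjamini-Hochberg adjustment over 13888 genes, and the procedure was tested on simulated data. A call needed an adjusted p below 0.05 and a log2 difference of at least 1. The receptors and gene lists were chosen with earlier results of these data known. Every receptor is accounted for, and each list is described by its counts and median, with up to 4 genes of smallest adjusted p in a comparison. Values of Cyp2c55, Cyp7b1, Tat, Cyp4a14 and Apoa4 in adjacent liver, and the second Esrrg probe set, lie outside this rule and were chosen after they were seen. Replicate numbers did not pair pieces (correlations of same-numbered deviations -0.11 to 0.14). Promoters are RefSeq's, on GRCm38.p6, and 36 of 39 receptors had an entry.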

Additional observations from a re-analysis of the deposited data

How the results depend on the processing

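Counts of called receptors were recomputed with other filters, probe set rules, normalizations, variance models, a fit of 2 groups alone, a replicate block and each array left out. With no minimum difference the counts were 7 higher and 16 lower in tumor against wild-type liver, 8 and 18 in adjacent against wild-type liver, and 11 and 11 in tumor against adjacent liver. With the most variable probe set 3 were lower in adjacent liver (Esrrg, Ppara, Rora) and 4 in tumor against wild-type liver, Esrrg being added. That Esrrg probe set passed the filter only through the 3 wild-type pieces, where it is high, so its calls are no separate evidence of a fall. With the same rule 2 were higher in tumor than in adjacent liver (Ppara, Rora). The mean of probe sets gave 0 higher in tumor than in adjacent liver. Leaving out single arrays gave 0 to 0 higher and 3 to 3 lower in tumor against wild-type liver. Adjacent against wild-type liver gave 0 to 0 and 0 to 1, and tumor against adjacent liver 1 to 1 and 3 to 4. The gene behind that count of 1 changed: without tumor replicate 3 it was Ppara (1.03), while Rora (0.98) was not called. The cause of these shifts was not tested. The replicate block kept all 6 counts (0 and 3, 0 and 0, 1 and 4), and same-numbered pieces did not deviate together. The sign turned for Nr5a2 in adjacent liver with the mean of probe sets (0.026, adjusted p = 0.662) and for Thra: 0.15 in tumor (adjusted p = 0.0631) and 0.32 in adjacent liver (adjusted p = 0.00172) with the most variable probe set, and 0.091 in adjacent liver with the mean (adjusted p = 0.143). Adjusted p-values are limma's. Nr1i3, Nr1h4, Rarb and the lower Esr1 of tumor against adjacent liver kept their calls in 19 of 19 settings run. Since Nr1i3, Nr1h4 and Rarb have 1 probe set each, the other probe set rules could not change their values. With 1 animal per genotype, no setting tests variation between animals, and 3 arrays a group limit the precision of each difference.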
